A study of Mus musculus with 12 samples.

Results

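The circadian clock genes Arntl, Clock, Npas2, Per1, Per2, Per3, Nr1d1 and Nr1d2 and the clock output genes Dbp and Ciart were examined in hepatocytes of 6 mice. They were chosen by symbol, as 10 of the 52636 genes of the deposited table. All 10 passed the filter on low values, a level of at least 10 in at least 3 libraries, as did 16563 genes in all. Hepatocytes of steatotic livers were separated with a Percoll gradient and differential centrifugation into cells with little fat (low-fat fraction) and cells with much fat (high-fat fraction). The 3 wild-type mice (WT mice 1, 2 and 3) and the 3 mice with a knockout of Ptprk (KO mice 1, 2 and 3), a receptor tyrosine phosphatase gene, each gave 1 library of each fraction. Mice are numbered by the replicate number in the labels, where WT mice 1, 2 and 3 carry the names WT1, WT5 and WT6 and KO mice 1, 2 and 3 the names KO2, KO4 and KO6. The 4 groups, low-fat and high-fat libraries of WT and of KO mice, thus hold 3 libraries each and come from the same 6 animals. Mouse strain, age, sex, diet, the reach of the knockout and the hour of collection are not given in the sources used here. The levels can therefore put the mice in an order but cannot place any mouse at an hour of the day.

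The mammalian clock is a loop of transcription factors. ARNTL (also called BMAL1) pairs with CLOCK or with its paralog NPAS2 and activates genes that carry E-box sequences, among them the Per, Cry, Nr1d and Dbp genes. PER and CRY proteins return to the nucleus and inhibit the pair, while the nuclear receptors NR1D1 and NR1D2 (REV-ERB alpha and beta) repress Arntl, Npas2 and Clock through ROR elements. In liver, transcripts of Arntl and Npas2 therefore peak at a time of day opposite to those of Nr1d1 and Dbp. The Per1 and Per2 transcripts peak later than Dbp. DBP is a PAR bZIP factor that activates genes with D-box sequences, and CIART (CHRONO) is a repressor of the ARNTL and CLOCK pair.

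The short sequences through which the loop acts were looked up in the 250 bases before each transcription start, on both strands, in RefSeq promoters of GRCm38.p6. Promoters were found for 9 of the 10 genes, so that Per2 could not be searched. Arntl, Clock and Per1 had 2, 3 and 2 promoters. The shares over all genes count promoters, while each of the 9 genes is counted by a match in any of its promoters. The E-box CACGTG stood in 6.02% of 32851 promoters of all genes, its variant CACGTT in 3.85%, the D-box (TTATGTAA or TTATGCAA) in 1.5% and the core of the ROR element (TAGGTCA or TGGGTCA) in 5.38%. Among the 9 genes, Ciart and Per1 held an E-box, Nr1d1 the variant, Per1 and Per3 a D-box, and none the ROR core in this window. The stretches with a match are shown because they hold the letters of the motifs named in the loop described above. They are written along the gene's strand with the motif in capitals. They lie at chr3:95882255-95882356 (minus strand) for Ciart, chr11:69098771-69098800 and chr11:69098913-69098944 (plus) for Per1, chr4:151044804-151044882 (minus) for Per3 and chr11:98775388-98775417 (minus) for Nr1d1.
Ciart, 3 E-boxes: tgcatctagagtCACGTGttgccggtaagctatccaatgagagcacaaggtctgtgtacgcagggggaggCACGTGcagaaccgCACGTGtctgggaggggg
Per1, E-box: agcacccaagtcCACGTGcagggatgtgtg
Per1, D-box: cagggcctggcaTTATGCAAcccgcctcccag
Per3, 2 D-boxes: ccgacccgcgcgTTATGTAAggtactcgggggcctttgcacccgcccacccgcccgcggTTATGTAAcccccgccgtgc
Nr1d1, E-box variant: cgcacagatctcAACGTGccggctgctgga
The variant in Nr1d1 is read on the opposite strand, where it is CACGTT. A match is a description of the letters and not of a factor bound there.

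Levels are given as deposited, in reads per 20 M reads of a library. The libraries were estimated to hold 15.1 to 25.0 M reads, so that 3 reads correspond to 2.40 to 3.98 in this unit. Ptprk, which checks the labels, lay at 2174 to 2883 in the 6 WT libraries and at 1117 to 1364 in the 6 KO libraries. The sum of 7 hepatocyte markers ranged from 515903 to 598968 over the 12 libraries. Among them Cyp2e1 had 25608 to 47248 in low-fat and 55304 to 70040 in high-fat libraries, while the fractions overlapped for each of the others. The sums of 9 Kupffer cell markers (470 to 1341 in low-fat, 2109 to 11426 in high-fat libraries), 8 stellate cell markers (127 to 641 and 1919 to 3406) and 6 endothelial markers (740 to 1870 and 3035 to 9182) were higher in every high-fat than in every low-fat library. The Kupffer sum of the high-fat libraries of WT mouse 1 (11426) and KO mouse 1 (9919) stood apart from 2109 to 2360 in the other 4. Of 4 cholangiocyte markers Krt19, Krt7 and Epcam were at or near 0, while Sox9 had 126 to 381. The low-fat library of KO mouse 2 had the highest sum of 7 immediate early genes, 14354 against 2564 to 9629 in the others. The sum of 4 nuclear-retained RNAs, mainly Malat1 and Neat1, ranged from 27592 to 154340 and differed between both libraries of WT mouse 1 (62019 low-fat, 154340 high-fat), KO mouse 1 (43398 and 152806) and KO mouse 2 (124202 and 32026).

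Arntl (ENSMUSG00000055116, chromosome 7), the activator around which the loop turns, differed 2.44-fold between the highest and the lowest mouse. Its level was 623 and 711 (low-fat and high-fat library) in WT mouse 1, 656 and 576 in WT mouse 2, and 282 and 300 in WT mouse 3. It was 369 and 467 in KO mouse 1, 294 and 251 in KO mouse 2, and 274 and 255 in KO mouse 3. WT mice 1 and 2 were high in both of their libraries and overlapped, KO mouse 1 was intermediate, and WT mouse 3 and KO mice 2 and 3 were low, with KO mouse 2 overlapping both of the others. Differences between mice were tested with limma's F-test of a mouse term against the spread of the fraction difference over mice, with p-values adjusted by the Benjamini-Hochberg method over all 16563 genes. Arntl passed (F = 55.3, adjusted p = 0.000177).

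Npas2 (ENSMUSG00000026077, chromosome 1), the paralog that can replace CLOCK as the partner of ARNTL, followed a like order over a wider range of 11.2-fold. Its level was 368 and 390 in WT mouse 1, 356 and 299 in WT mouse 2, and 208 and 228 in KO mouse 1. It was 98 and 102 in WT mouse 3, 112 and 96 in KO mouse 3, and 38 and 27 in KO mouse 2. KO mouse 2 lay below every other mouse in both libraries, and WT mouse 3 and KO mouse 3 could not be ordered. Clock (ENSMUSG00000029238, chromosome 5), in contrast, stayed between 1788 and 2401 in all 12 libraries, a range of 1.32-fold between the mouse means. Its 3 lowest mice, KO mouse 2 (1796 and 1806), KO mouse 3 (1938 and 1788) and WT mouse 3 (1951 and 2024), were the 3 lowest for Arntl too. Npas2 differed between mice (F = 160, adjusted p = 8e-06). Clock passed narrowly (F = 7.86, adjusted p = 0.0364), but did not without any 1 of WT mice 1, 2 and 3 and KO mice 2 and 3 (adjusted p = 0.0584 to 0.0900), within genotypes (0.105) or without the filter on low values (0.0661).

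Nr1d1 (ENSMUSG00000020889, chromosome 11) and Nr1d2 (ENSMUSG00000021775, chromosome 14), the repressors of Arntl, ran in the reverse order. Nr1d1 was at 642 and 850 in WT mouse 1, 1131 and 1435 in KO mouse 1, and 2036 and 2160 in WT mouse 2. It was at 2164 and 2241 in WT mouse 3, 3052 and 2769 in KO mouse 3, and 3538 and 3424 in KO mouse 2. No library of one mouse overlapped those of another, although WT mice 2 and 3 were close. Nr1d2 was at 1041 and 1057 in WT mouse 1, the lowest, and at 2445 and 2323 in KO mouse 2, the highest. WT mouse 2 (1621 and 1403) and KO mouse 1 (1536 and 1566) overlapped, WT mouse 3 was at 1995 and 1992, and KO mouse 3 was at 2243 and 2289. The range between mice was 4.70-fold for Nr1d1 (F = 127, adjusted p = 1.5e-05) and 2.27-fold for Nr1d2 (F = 88.6, adjusted p = 4.2e-05). In GENCODE M21, 263 of 3077 exonic bases of Nr1d1 overlap exons of Thra on the opposite strand. Whether the counting used strand is not given in the sources used here, so that reads of this stretch cannot be assigned.

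Dbp (ENSMUSG00000059824, chromosome 7) showed the widest range of the 10 genes, 23.5-fold between mice. WT mouse 1 had 77 in both libraries, KO mouse 1 had 256 and 231, and WT mouse 2 had 351 and 265. WT mouse 3 had 611 and 593, KO mouse 3 had 1630 and 1498, and KO mouse 2 had 2011 and 1715. All 6 mice could be ordered without overlap, in the same order as for Nr1d1. F was 708 (adjusted p = 2.35e-07), and this was the smallest adjusted p of all genes tested. The exons of Dbp share 539 of 2993 bases with Sphk2 on the opposite strand, and Sphk2 was at 1315 and 1359 in WT mouse 1, where Dbp was at 77. Sphk2 too was lowest in WT mouse 1 and highest in KO mouse 2 (2679 and 2592). As for Nr1d1, reads of the shared stretch cannot be assigned. Tef, which encodes a PAR bZIP factor related to DBP, repeated the order of Dbp in both fractions, from 800 and 836 in WT mouse 1 to 3402 and 2937 in KO mouse 2.

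The ratio of Arntl to Dbp, a contrast of both ends of the cycle within 1 library, ranged from 9.23 in the high-fat library of WT mouse 1 to 0.146 in both libraries of KO mouse 2. It was 8.09 in the low-fat library of WT mouse 1. In WT mouse 2 it was 1.87 (low-fat) and 2.17 (high-fat), and in KO mouse 1 it was 1.44 and 2.02. WT mouse 3 had ratios of 0.462 and 0.506, and KO mouse 3 of 0.168 and 0.170. Both libraries of a mouse stood side by side in the order of the 12 ratios, except that those of WT mouse 2 and KO mouse 1 overlapped.

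**Figure D1:**
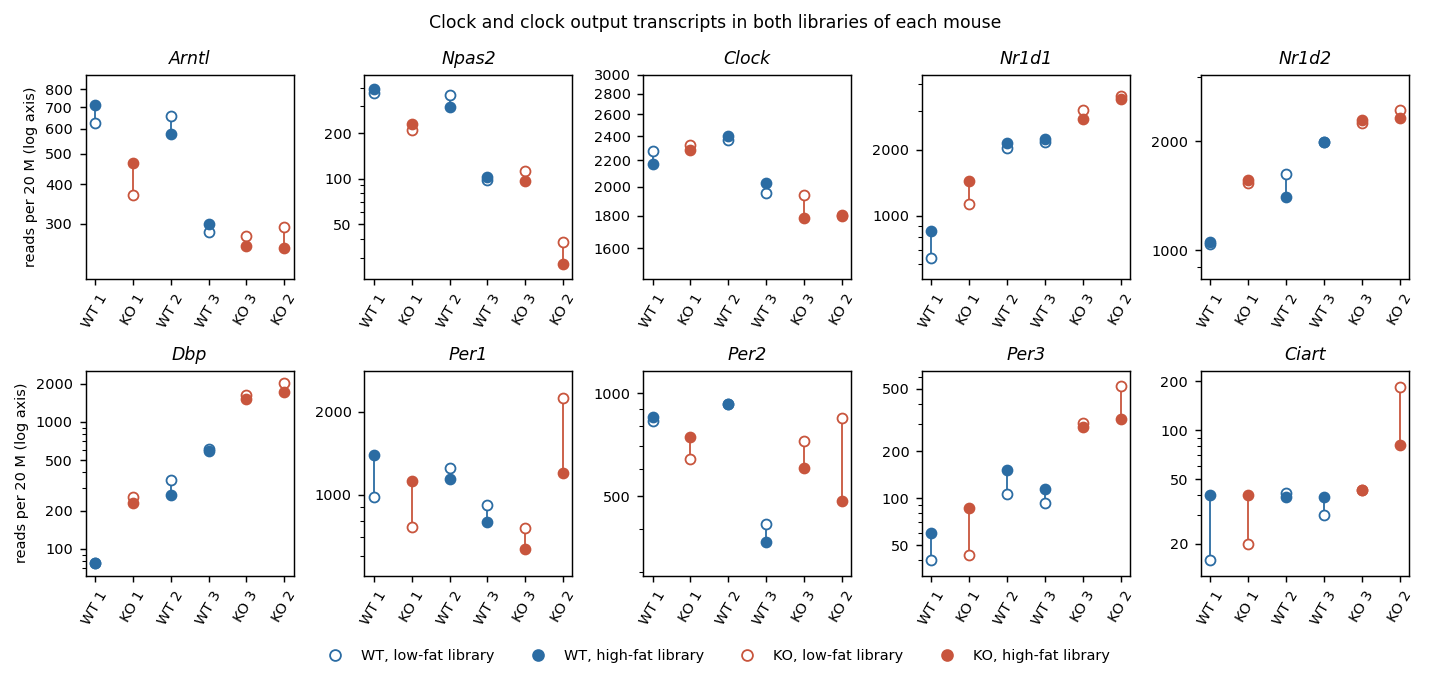
Level of each of the 10 genes (reads per 20 M, log axis) in the low-fat (open) and high-fat (filled) library of each mouse, ordered along the horizontal axis by Dbp. A line joins both libraries of a mouse, and it is short against the spread between mice for Dbp, Npas2, Nr1d1 and Nr1d2. It is long for Per1, above all in KO mouse 2, and for Ciart in WT mouse 1 and KO mice 1 and 2.

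The 3 Per genes, the repressors of the loop, did not share 1 pattern. Per3 (ENSMUSG00000028957, chromosome 4) had the same 2 lowest and 2 highest mice as Dbp. It was at 40 and 60 in WT mouse 1, 43 and 87 in KO mouse 1, 93 and 114 in WT mouse 3, and 106 and 152 in WT mouse 2. KO mouse 3 had 301 and 287 and KO mouse 2 had 522 and 322, both above all other mice. WT mouse 1 overlapped KO mouse 1, and WT mouse 3 overlapped WT mouse 2, the pair that stood in the other order for Dbp. Its range was 8.07-fold (F = 31.1, adjusted p = 0.000865).

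Per2 (ENSMUSG00000055866, chromosome 1) stood closer to Arntl than to Dbp. It was highest in WT mouse 2 (927 and 928) and WT mouse 1 (826 and 849), and lowest in WT mouse 3 (416 and 367). KO mouse 1 had 642 and 743, KO mouse 3 had 727 and 603, and KO mouse 2 had 844 in its low-fat but 484 in its high-fat library, so that the 3 KO mice overlapped. Per2 differed between mice (F = 10.3, adjusted p = 0.0189), but this rested on WT mouse 3, without which the adjusted p was 0.317.

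Per1 (ENSMUSG00000020893, chromosome 11), whose transcription also responds quickly to CREB and glucocorticoid signalling, ranged from 636 in the high-fat library of KO mouse 3 to 2250 in the low-fat library of KO mouse 2. The other libraries lay between 754 and 1396, and both libraries of a mouse often spanned those of another, as in WT mouse 1 (980 and 1396) and KO mouse 1 (766 and 1124). The sum of 3 glucocorticoid response genes (Fkbp5, Tsc22d3 and Sgk1) ranged from 3155 in the high-fat library of KO mouse 3 to 6085 in that of KO mouse 1. In KO mouse 2 the sum was 5008 (low-fat) and 4339 (high-fat). Its relation to Per1 was not tested. Ciart (ENSMUSG00000038550, chromosome 3) was low, at 16 to 43 in 10 libraries, and reached 185 and 81 only in KO mouse 2. The mouse term was not past the threshold for Per1 (F = 4.74, adjusted p = 0.101) or Ciart (F = 5.78, adjusted p = 0.0705). Both passed without KO mouse 1 (adjusted p = 0.0456 and 0.0491). Without KO mouse 2 the value was 0.0674 for Per1 and 0.316 for Ciart.

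In KO mouse 2 the low-fat library exceeded the high-fat library in all of Per1 (2250 against 1195), Per2 (844 against 484), Per3 (522 against 322) and Ciart (185 against 81). The immediate early gene Fos moved with them, at 1577 against 612, while the other mice had 69 to 492 for Fos. The nuclear-retained RNAs Malat1 (73160 against 21711) and Neat1 (50432 against 9973) did so too. In WT mouse 1 and KO mouse 1, Malat1 (43007 and 33894 in low-fat, 106548 and 104542 in high-fat libraries) was higher in the high-fat library, as were Per1 (980 to 1396 and 766 to 1124) and Ciart (16 to 40 and 20 to 40). Malat1 was also higher there in WT mice 2 and 3 and KO mouse 3 (72093 to 82792, 22017 to 28576 and 21337 to 25646). Per1 was lower there in these mice (1253 to 1138, 915 to 796 and 754 to 636). Their Ciart went from 41 to 39, 30 to 39 and 43 to 43. On the scaled log2 values of KO mouse 2 the high-fat library was lower by only a small step for Dbp (a difference of -0.24), Nr1d1 (-0.06) and Nr1d2 (-0.09). The difference in this mouse was -0.48 for Npas2 and -0.24 for Arntl, for each gene the largest of any mouse. The part of the immediate early genes and of nuclear-retained RNA in the Per and Ciart values was not tested.

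Over the 10 genes, 8 differed between mice, against 13.1% of all genes tested (2174 genes). The background share was 18.6% without KO mouse 2, where 7 of the 10 remained past the threshold (Per1, Ciart and Clock were not), and 8.72% within genotypes, where the same 7 passed. The SD of the log2 level between mice was 1.75 for Dbp, 1.30 for Npas2, 1.21 for Per3, 0.84 for Nr1d1, 0.78 for Ciart, 0.58 for Arntl, 0.46 for Nr1d2, 0.41 for Per1 and Per2, and 0.15 for Clock. The median gene had 0.18. The spread between both fractions of a mouse, as the SD over 6 mice of the high-fat minus low-fat difference, was smaller for Nr1d2 (0.08), Clock (0.10), Dbp (0.11), Arntl (0.15), Nr1d1 (0.17) and Npas2 (0.17) than for the median gene (0.21). It was larger for Per2 (0.32), Per1 (0.50), Per3 (0.54) and Ciart (0.80).

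**Figure D2:**
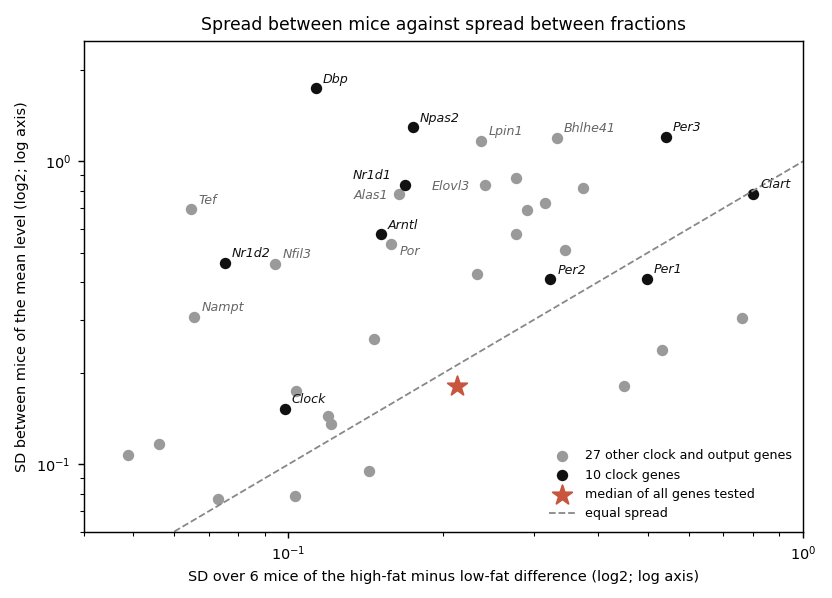
SD between the 6 mice of the mean log2 level (vertical) against the SD over mice of the log2 difference between both fractions (horizontal), both on log axes, for the 10 genes (black), 27 other clock and output genes (grey, named where the first SD is large against the second) and the median of all genes tested (star). Dbp lies farthest above the dashed line of equal spread, Per3 lies above it at a large fraction difference, and Per1 and Ciart lie just below it. A mean of both libraries is set against their difference, so the line does not mark an absence of differences between mice. The ratio of the SDs was 0.83 for Per1 and 0.98 for Ciart, against a median of 0.74 over all genes tested.

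The stability of each gene was also taken as the correlation over 6 mice between the log2 levels of both fractions. Pearson's r was 0.998 for Dbp, 0.997 for Nr1d1 and 0.974 for Per3, each with a Spearman's rho of 1 and an exact permutation p for r of 0.0014, the smallest that 720 pairings can give, and 0.0028 for rho. It was 0.996 for Npas2 (exact p = 0.0028), 0.989 for Nr1d2 and 0.971 for Arntl (exact p = 0.0042 for each) and 0.943 for Ciart (exact p = 0.0069), with rho of 0.943 in all 4 (exact p = 0.0167). Lower values were found for Clock (r = 0.816, rho = 0.829, exact p = 0.05 and 0.0583), Per2 (r = 0.763, rho = 0.771, exact p = 0.0667 and 0.103) and Per1 (r = 0.496, rho = 0.771, exact p = 0.336 and 0.103). Of all genes, 17.5% had an unadjusted exact p of 0.05 or less. None passed after adjustment over the 16563 genes, and the adjusted p of the 10 genes lay between 0.0958 and 0.670. The value for Ciart rested on KO mouse 2, without which r was 0.675, and that for Per2 rose to 0.973 without this mouse and fell to 0.269 without WT mouse 3. The relations of Dbp, Nr1d1, Nr1d2, Npas2, Per3 and Arntl stayed at 0.955 or more without any 1 mouse, and at 0.928 or more without the 2 mice farthest from the median of the low-fat level. Without those 2 mice r was 0.781 for Clock, 0.762 for Ciart, 0.479 for Per2 and 0.202 for Per1.

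The relation of the genes to Arntl over the 6 mice, taken from the mean log2 level of both libraries of a mouse, ran in both directions. Both partners of ARNTL had the same direction, with an r of 0.890 for Npas2 (rho = 0.943, exact permutation p = 0.0167 for both) and 0.828 for Clock (rho = 0.829, exact p = 0.0528 and 0.0583). The REV-ERB genes and Dbp had the opposite direction. Nr1d2 had an r of -0.946 and a rho of -1 (exact p = 0.0014 and 0.0028), Dbp had -0.902 and -0.943 (exact p = 0.0153 and 0.0167), and Nr1d1 had -0.789 and -0.943 (exact p = 0.0583 and 0.0167). Per3 (r = -0.730, rho = -0.829, exact p = 0.113 and 0.0583) and Ciart (r = -0.606, rho = -0.829, exact p = 0.181 and 0.0583) had the sign of Dbp. Per2 had that of Npas2 (r = 0.694, rho = 0.657, exact p = 0.118 and 0.175), and Per1 had values near 0 (r = 0.198, rho = 0.086, exact p = 0.713 and 0.919).

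The background for these relations was 10.4% of the other genes with an unadjusted exact p of 0.05 or less, against 3 of the 9 genes (Npas2, Nr1d2 and Dbp). No gene passed after adjustment over all genes, where the 9 had values of 0.441 or more. Without the 2 mice farthest from the median of Arntl, WT mice 1 and 2, r over the other 4 mice was 0.932 for Clock, 0.791 for Npas2, 0.173 for Per2, -0.233 for Per1, -0.894 for Per3, -0.986 for Nr1d1, -0.996 for Nr1d2, -0.956 for Dbp and -0.688 for Ciart. The relation of Per2 therefore rested on those 2 mice. With each mouse set against the mean of its genotype, r was 0.834 for Npas2, 0.758 for Clock, 0.877 for Per2, -0.922 for Nr1d2, -0.847 for Dbp, -0.742 for Nr1d1, -0.603 for Per3, -0.449 for Ciart and 0.197 for Per1. For Per1, r was 0.955 without KO mouse 2, -0.118 without KO mouse 3, -0.077 in the low-fat libraries alone and 0.644 in the high-fat libraries alone.

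**Figure D3:**
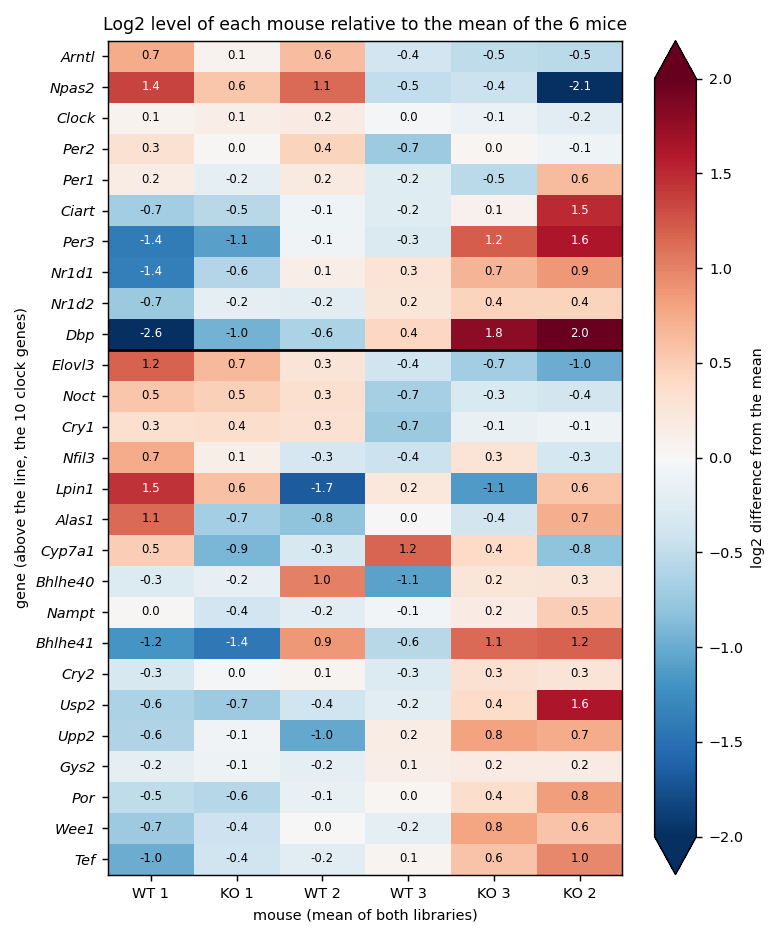
Log2 level of each mouse, as the mean of both libraries, minus the mean of the 6 mice, for the 10 genes (above the line) and the 17 other clock and output genes that differed between mice (below, ordered by their relation to Dbp). Mice are ordered by Dbp from left to right and colours end at 2 in either direction, so that Arntl and Npas2 turn from red to blue along a row while Nr1d1, Nr1d2, Dbp, Per3 and Tef turn from blue to red.

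Among 28 other clock and clock output genes, 27 were tested (Rorb was at 0 or 1) and 17 differed between mice. In the negative limb, Cry1 had 336 to 673 in 5 mice and was lowest in WT mouse 3 (249 and 250; adjusted p = 0.00396, but 0.104 without WT mouse 3), and Cry2 had 678 to 1039 in the WT mice and 860 to 1203 in the KO mice (adjusted p = 0.00815, but 0.0844 within genotypes). The PAR bZIP gene Tef ranged 3.86-fold (F = 217, adjusted p = 3e-06), whereas Hlf, of the same family, stayed between 1117 and 1537 (adjusted p = 0.0924). Nfil3, whose product competes with DBP at D-boxes, was highest in WT mouse 1 (2123 and 2040), where Dbp was lowest, and had 845 to 1568 in the other mice (adjusted p = 8.2e-05). Bhlhe41, which encodes the repressor DEC2, had 24 to 60 in WT mice 1 and 3 and KO mouse 1 and 145 to 213 in WT mouse 2 and KO mice 2 and 3 (adjusted p = 0.00016). Its mice thus fell into separate clusters. By their means, WT mouse 1 and KO mouse 1 were lowest and KO mice 2 and 3 highest, as for Dbp. WT mouse 2 was above WT mouse 3, the reverse of their order for Dbp.

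Of the output genes, Por, the electron donor of cytochromes P450, had 2227 and 3691 in WT mouse 1 and 2369 and 3153 in KO mouse 1, both low for Dbp, and was highest in KO mouse 2 with 6516 and 8094 (adjusted p = 0.000177). Usp2, a deubiquitinase of clock proteins, was at 90 to 135 in the WT mice and KO mouse 1, at 237 and 165 in KO mouse 3, and at 548 and 450 in KO mouse 2 (adjusted p = 0.000258). Wee1, a cell cycle kinase, had 33 to 77 in the WT mice and KO mouse 1 and 85 to 121 in KO mice 2 and 3 (adjusted p = 0.00818, but 0.0622 without KO mouse 3). Elovl3, a fatty acid elongase, ran the opposite way, from 11203 and 13666 in WT mouse 1 to 2086 and 3660 in KO mouse 2 (adjusted p = 8.3e-05). Nampt, the enzyme of NAD salvage, ranged 1.84-fold and was highest in KO mouse 2 (1368 and 1241; adjusted p = 0.000487). Alas1, the first enzyme of haem synthesis, did not follow this order: it was highest in WT mouse 1 (15735 and 18415) and next in KO mouse 2 (13400 and 12521), with 4134 to 7814 in the other mice (adjusted p = 2.5e-05). Lpin1, Cyp7a1, Upp2, Noct, Bhlhe40 and Gys2 differed between mice too, and Gys2 did so with the smallest range, 1.28-fold, and not without any 1 WT mouse (adjusted p = 0.0601 to 0.0669) or within genotypes (0.0755).

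The genes outside the set whose levels were most like those of Arntl over the 12 libraries, of 10508 genes with a mean of at least 100, were Tank (r = 0.943), Ppfia1 (0.937), Trim7 (0.927), Rb1 (0.911) and Skil (0.910), given as a description since 2 libraries share a mouse. All 5 exceeded the r of Npas2 with Arntl (0.888). Tank, the first of them, ranged from 251 to 459 over the libraries, and Arntl from 251 to 711. The genes most like Dbp were Tef (0.985), Gstt2 (0.982), Thra (0.973), Cdkn1b (0.960) and Abcd2 (0.959), beside Nr1d2 at 0.980 and Nr1d1 at 0.951. Abcd2, a peroxisomal fatty acid transporter, had the widest range of them, from 37 and 49 in WT mouse 1 to 655 and 590 in KO mouse 2. Thra, which shares exonic bases with Nr1d1, ranged from 494 and 552 in WT mouse 1 to 972 and 956 in KO mouse 2.

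The knockout was compared with WT in each fraction with limma over all 12 libraries and a mean for each of the 4 groups. None of the 10 genes differed, at an adjusted or an unadjusted p under 0.05, in either fraction, where 0.00604% of all genes (Ptprk alone) passed. Ptprk itself missed the threshold in the high-fat libraries without that of WT mouse 3 or KO mouse 2 (adjusted p = 0.0524 and 0.0531). Dbp had the largest estimates, with log2 fold changes of 1.88 (SE 1.09) in low-fat and 1.86 (SE 1.09) in high-fat libraries (unadjusted p = 0.110 and 0.113). Its mean was 346 ± 267 (SD, n = 3) in low-fat libraries of WT and 1299 ± 923 in those of KO mice, and 312 ± 261 and 1148 ± 802 in high-fat libraries. KO mice 2 and 3 were above all WT mice, but KO mouse 1 lay between WT mice 1 and 2, so that the groups overlapped. Between mice of the same number, which are different animals, Dbp, Nr1d1, Nr1d2 and Per3 were higher and Arntl was lower in KO in 3 of 3 pairs of both fractions. Npas2 was lower in KO except in the third low-fat pair (98 in WT, 112 in KO). The share of all genes with 3 of 3 pairs in both fractions was not counted, so nothing is read from these pairs. With the number as a block the adjusted p of Dbp was 0.0986 in low-fat and 0.118 in high-fat libraries, and none of the 10 genes passed. Leaving out 1 library moved the estimate between 1.03 and 2.80 in low-fat and between 1.07 and 2.83 in high-fat libraries.

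Npas2 had estimates of -1.26 (SE 0.83) and -1.40 (SE 0.83), and Arntl of -0.64 (SE 0.36) and -0.67 (SE 0.36). Per3 had 1.36 (SE 0.81) and 0.98 (SE 0.81), Nr1d1 had 0.71 and 0.58 (SE 0.59 for both), and Nr1d2 had 0.45 and 0.50 (SE 0.30 for both). Ciart had 0.97 and 0.39 (SE 0.62 for both), with 0.14 in low-fat libraries without that of KO mouse 2. Clock (-0.12 and -0.17, SE 0.12), Per1 (0.08 and -0.18, SE 0.37) and Per2 (0.11 and -0.13, SE 0.34) were nearest to 0, and Per1 was at -0.42 in low-fat libraries without that of KO mouse 2. None of the 10 genes had groups without overlap in either fraction, against 5.43% of all genes in low-fat and 5.17% in high-fat libraries. The median over the 10 genes was 0.28 in low-fat and 0.13 in high-fat libraries, against -0.00 and -0.01 over all genes. The hour of collection of each mouse is not given, so that genotype and the state of the clock at collection cannot be told apart in 3 against 3 mice.

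**Figure D4:**
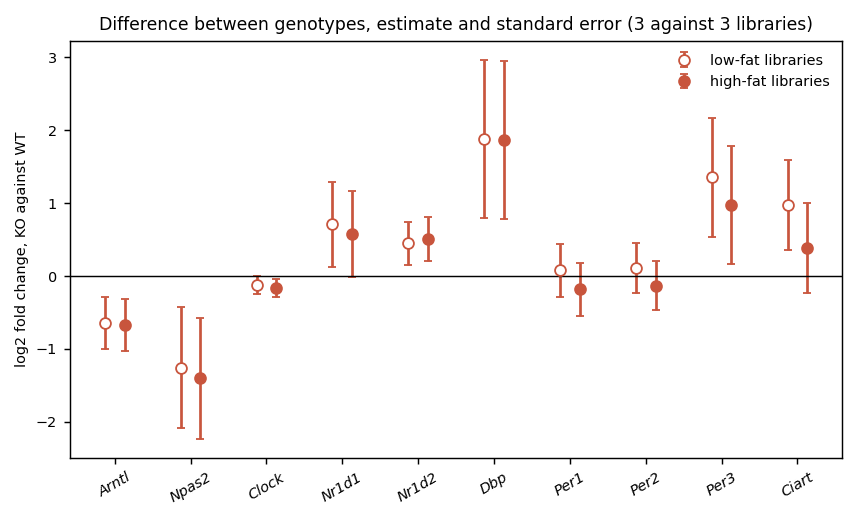
Log2 fold change of KO against WT for the 10 genes in low-fat (open) and high-fat (filled) libraries, with the standard error of the fit (3 against 3 libraries). Estimates of both fractions, which come from the same mice, lie close together for Dbp, Npas2, Arntl, Nr1d1 and Nr1d2, and none passed the threshold.

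Between the fractions no clock gene differed. In WT mice 0.0% of all genes passed and 1847 had an unadjusted p under 0.05, none of them among the 10. In KO mice 139 genes passed (0.839%), 134 of them higher in the high-fat libraries and again none of the 10. That count of genes over all fell to 0 without WT high-fat library 2, KO low-fat library 1 or any 1 KO high-fat library, and to 2 without the low-fat library of KO mouse 2. High-fat minus low-fat estimates ranged from -0.20 (Dbp) to 0.45 (Ciart) in WT and from -0.34 (Per2) to 0.02 (Per3) in KO mice, with medians of -0.04 and -0.12 against -0.02 and -0.03 over all genes. With each mouse as a block, 1.7% of all genes passed in KO and 0.0% in WT mice, and the smallest adjusted p among the 10 genes was that of Dbp (0.237 in WT, 0.261 in KO mice). None of the 10 had fractions without overlap, a count that ignores the pairing too, against 17.4% of all genes in WT and 13.4% in KO mice. After scaling, 6 of 6 mice had less Dbp in their high-fat library, by at most 1.28-fold (mean log2 difference -0.21, SD 0.11). As deposited, both libraries of WT mouse 1 were equal. The fraction difference over all 6 mice together was not tested. Markers of Kupffer, stellate and endothelial cells and the hepatocyte marker Cyp2e1 moved with the fraction as given above, and their part in the clock gene values was not tested. In such bulk libraries fewer cells of a type and less RNA per cell cannot be told apart.

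The interaction of genotype and fraction passed for none of the 10 genes and for 0.0% of all genes (24 had an unadjusted p under 0.05). Estimates lay between -0.58 (Ciart, SE 0.87) and 0.06 (Nr1d2, SE 0.43). Those below -0.2 were of Ciart, Per3 (-0.38), Per1 (-0.26) and Per2 (-0.24), the genes raised in the low-fat library of KO mouse 2. Without that library Ciart was at 0.25, Per3 at 0.32, Per1 at 0.24 and Per2 at -0.16.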

How the data were processed

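RNA sequencing of polyA RNA gave 12 libraries. Per the submitters' processing notes the build was mm9. The aligner, counter, annotation and use of strand are not given in the sources used here. The deposited values are a score: the authors' read counts per gene were scaled to 20 M per library and rounded up, as read from the values (each column sums to 20.01 M). Depth is thus an estimate, less certain for the high-fat libraries of WT mouse 1 and KO mouse 1, and limma on the log2 scale took the place of a count model.

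Values were rescaled by the trimmed mean of M values and transformed as log2(value + 2), which understates changes of low genes. limma 3.58.1 (R 4.3.3), with an intensity trend, was tested on simulated data. P-values are two-sided, Benjamini-Hochberg adjustment ran across all 16563 genes, and calls were made at an adjusted p under 0.05. The mouse F-test fitted mouse and fraction. Alternatives were other scalings, pseudocounts of 0.5 and 10, no filter, a replicate block, only the libraries compared, and each library or mouse left out. The genes, the list of other clock genes, the markers and the tests were chosen with earlier results of these data known. All 10 genes were named, with other clock genes past a threshold, a fixed group of others, and the 5 genes most like Arntl and Dbp. Gene locations come from GENCODE M21 (GRCm38).

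Each replicate is another mouse, and replicates differed beyond read sampling (chi-square per gene 20.5 to 55.4 within groups). The pairing of fractions comes from the mouse names in the labels: both libraries of a mouse deviated from the group means together in WT mice (correlations of 0.498, 0.469 and 0.582), but in KO mice only the third pair did (0.044, -0.009 and 0.460). Same-numbered WT and KO mice are different animals, and correlated at 0.251, 0.396 and 0.296 in low-fat and 0.490, -0.171 and 0.381 in high-fat libraries.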

Additional observations from a re-analysis of the deposited data

How the results depend on the processing

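The 8 differences between mice kept their side of the threshold under other scalings and pseudocounts, and the exceptions for Clock, Per1, Per2 and Ciart stand with their results. None of the 10 genes was called between genotypes or fractions under any alternative run. The replicate block changed no call of these genes. Values of single genes, which here include Ptprk and the other clock genes, were also compared with the main fit. Of 718 under the other alternatives, some of which used only part of the libraries, 705 kept direction and call. Of 996 with a library or mouse left out, 889 did. An F value has no direction and none of the correlations passed after adjustment, so many of these values had little room to change. Leaving out a library leaves its mouse with 1 library, so that the fractions compared then hold different mice. Depth limits Ciart most, at 16 to 43 in 10 libraries.

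The number of all genes that differed between mice was 1445 within genotypes and 1290 to 3078 without 1 mouse. For KO against WT in high-fat libraries it was 0 with only the libraries compared (233 at an unadjusted p under 0.05) and 0 to 1 without 1 library. Between fractions in WT mice it was 1 with a pseudocount of 10 and 0 to 134 without 1 library. In KO mice it was 82 without the filter, 282 with the replicate block, 0 with only the libraries compared (1384 at an unadjusted p under 0.05) and 0 to 301 without 1 library.

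High-fat minus low-fat estimates near 0 changed sign with the deposited scaling for Arntl (0.0306 in WT, 0.0029 in KO), Clock (0.0018 in WT) and Nr1d1 (0.0518 in KO, and 0.0091 with median-of-ratios scaling), and with a pseudocount of 10 for Per3 (-0.0060 in KO). The relation of Per1 to Arntl was -0.0772 in low-fat libraries alone and ranged from -0.12 to 0.96 without 1 mouse. The cause was not tested.

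Without 1 library, KO against WT ranged from -0.42 to 0.34 in low-fat and -0.40 to 0.0645 in high-fat libraries for Per1, and from -0.21 to 0.29 and -0.55 to 0.12 for Per2. High-fat minus low-fat in WT mice ranged from -0.38 to 0.33 for Arntl, -0.68 to 0.48 for Npas2, -0.16 to 0.22 for Per1, -0.42 to 0.32 for Per2, -0.0205 to 0.79 for Per3, -0.44 to 0.60 for Nr1d1, -0.38 to 0.12 for Nr1d2 and -1.05 to 0.59 for Dbp. In KO mice it ranged from -0.31 to 0.10 for Arntl, -0.20 to 0.0236 for Clock, -0.91 to 0.55 for Npas2, -0.52 to 0.24 for Per1, -1.01 to 0.72 for Per3, -0.50 to 0.40 for Nr1d1, -0.25 to 0.16 for Nr1d2, -1.14 to 0.75 for Dbp and -0.80 to 0.70 for Ciart. The interaction ranged from -0.39 to 0.33 for Arntl, -0.15 to 0.0763 for Clock, -0.82 to 0.64 for Npas2, -0.52 to 0.24 for Per1, -0.66 to 0.0807 for Per2, -1.41 to 0.32 for Per3, -0.62 to 0.44 for Nr1d1, -0.18 to 0.32 for Nr1d2, -0.94 to 0.95 for Dbp and -1.25 to 0.25 for Ciart.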
